A study of Mus musculus with 4 samples.

Results

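Klk8, Klk6, Serpina3n, Serpinb1a and Il33 are a set of 5 genes that injured oligodendrocytes, the myelin-forming cells of the brain, are known to express or raise, among other cells. They were measured by bulk RNA-seq in cells sorted from the corpus callosum, a tract of myelinated fibres that joins the cerebral hemispheres. The 5 were given as a list of named genes out of the 52636 Ensembl genes measured, and all 5 were found by symbol. The list was drawn up because the level of Klk8 differed between the groups by more than that of microglial markers. The members were thus chosen by their measured RPKM difference between AnnexinV-positive and AnnexinV-negative cells, and their values in it are given as a description with no test. All libraries came from Mertk_KO mice, which lack a receptor through which phagocytes take up dying cells. All mice had 4 weeks of chow with 0.2% cuprizone, a copper chelator that kills oligodendrocytes. AnnexinV-positive cells, which expose phosphatidylserine as dying cells do, gave 2 libraries, and AnnexinV-negative cells, labelled as living, gave 2 libraries. There was no wild-type and no untreated group, the labels give no age or sex, and they do not say whether replicates came from separate animals. The p-values for other genes below therefore measure the spread between these libraries, which may be technical.

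Tissue kallikreins are secreted serine proteases, many of them trypsin-like, encoded in a single gene cluster. Klk6 protein is abundant in oligodendrocytes and cleaves myelin basic protein, and Klk8 protein, also called neuropsin, is known from neurons and, in mice, from oligodendrocytes of injured spinal cord. Serpins are protease inhibitors that trap their target in a covalent complex: Serpina3n is secreted by reactive astrocytes and oligodendrocytes, and Serpinb1a is a mainly intracellular inhibitor of neutrophil elastase-like proteases. Il33 encodes a nuclear cytokine of the IL-1 family that damaged cells release as an alarm signal, and in mouse brain oligodendrocytes and astrocytes express it.

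Klk8 stood apart from the other members: it was higher in AnnexinV-positive cells, and the other 4 were lower there. The 2 kallikreins of the set therefore differed in opposite directions. In 4 of 5 members the level in AnnexinV-positive cells was under 1 RPKM in each library, and Klk8 was the exception at over 8 RPKM. RPKM here means reads per kilobase of gene as the authors scaled them between libraries, which did not follow the estimated reads in genes.

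Klk8 lies on chromosome 7 (43797577 to 43803826, plus strand, GRCm38), and Klk6 on the same strand at 43824499 to 43832030, with Klk7 between them. Their promoter windows are shown because these near neighbours differed in opposite directions. Each window is 300 bases long, from 250 bases before to 50 bases after a transcription start in RefSeq (GRCm38.p6), 5′ to 3′, and Klk6 has 2 such starts. The Klk8 window is chr7:43797327-43797626, and the Klk6 windows are chr7:43824294-43824593 and chr7:43825200-43825499, all on the plus strand. Capitals mark matches, on either strand, to GGGCGG, a motif of SP and KLF factors, or ACAAT, a core of SOX factor motifs.
Klk8: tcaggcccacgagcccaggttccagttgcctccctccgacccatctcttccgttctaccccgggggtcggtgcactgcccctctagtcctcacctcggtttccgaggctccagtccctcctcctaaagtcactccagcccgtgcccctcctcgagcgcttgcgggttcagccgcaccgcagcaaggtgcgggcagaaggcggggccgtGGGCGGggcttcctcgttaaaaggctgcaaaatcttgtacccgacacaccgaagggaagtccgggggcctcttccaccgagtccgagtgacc
Klk6 start 1: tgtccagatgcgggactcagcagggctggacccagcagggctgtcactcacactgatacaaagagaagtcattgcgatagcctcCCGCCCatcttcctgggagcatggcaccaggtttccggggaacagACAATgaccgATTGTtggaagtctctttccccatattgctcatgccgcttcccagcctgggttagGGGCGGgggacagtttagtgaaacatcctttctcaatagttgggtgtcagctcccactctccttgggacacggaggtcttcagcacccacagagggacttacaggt
Klk6 start 2: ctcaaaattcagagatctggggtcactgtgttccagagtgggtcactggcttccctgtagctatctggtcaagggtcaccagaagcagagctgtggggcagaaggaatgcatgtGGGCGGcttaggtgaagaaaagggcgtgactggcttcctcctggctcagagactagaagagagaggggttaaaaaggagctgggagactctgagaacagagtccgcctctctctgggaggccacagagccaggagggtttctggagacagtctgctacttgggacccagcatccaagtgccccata

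The Klk8 window held 1 GGGCGG and 0 ACAAT matches. The first Klk6 window held 2 of each, and the second held 1 GGGCGG and 0 ACAAT. Of 32851 windows of this length in the RefSeq table, 35.7% held GGGCGG and 31.0% held ACAAT. None of the 3 windows held TATAAA (13.6% of all windows), the AP-1 motif TGANTCA (7.81%) or the STAT motif TTCNNNGAA (8.30%), also searched on both strands. The Klk8 window was 65.3% G and C with 23 CpG pairs, a G and C share above that of 82.3% of windows. The Klk6 windows were 55.7% and 55.3% G and C, near the median of 52.7%. They held 8 and 3 CpG pairs, against a median of 7. These matches are a description of the letters and no evidence of binding.

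Klk8 was at an RPKM of 8.76 and 8.35 in AnnexinV-positive libraries 1 and 2, against 2.02 and 1.58 in AnnexinV-negative libraries 1 and 2. The groups did not overlap, and library 1 was 1.05 times library 2 in AnnexinV-positive cells and 1.28 times in AnnexinV-negative cells. About 1334 and 1107 reads lay behind the AnnexinV-positive values, against 374 and 235 behind the AnnexinV-negative values. The mean was 8.55 ± 0.290 in AnnexinV-positive and 1.80 ± 0.314 RPKM in AnnexinV-negative cells (SD, n = 2 each), a ratio of 4.75. On the log2(RPKM + 0.1) scale the difference was 2.20 (SE 0.21, or 0.17 from this gene alone). The first SE given for a gene, here and below, comes from the limma fit, which draws it toward the spread of other genes. Of the 10927 genes tested, 7 had a larger positive difference. Klk8 was picked by this difference, so its rank is a description, and genes too low to be tested are not ranked.

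Klk8 shares 382 exon bases, 24.8% of its exon length, with 2310002F09Rik on the opposite strand, and the library kit does not keep strand. That gene was at 0.272 and 0.195 RPKM in AnnexinV-positive and 0.148 and 0.294 RPKM in AnnexinV-negative libraries, with overlapping groups. In RPKM, an average over its 4492 exon bases against 1540 for Klk8, it was below Klk8 in every library. Its greater length means more reads per unit of RPKM, but these are counted over all of its exon bases, of which 382 are shared. Reads from the shared bases cannot be assigned to either gene.

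Klk6 was almost without reads in AnnexinV-positive cells. Its RPKM was 0.0267 and 0.0614 in AnnexinV-positive libraries, against 3.05 and 1.45 in AnnexinV-negative libraries. These correspond to 4 reads (95% exact Poisson interval 1.09 to 10.2, counting error only) and 8 reads (3.45 to 15.8) in AnnexinV-positive libraries, against 554 and 213 reads. The difference on the log2(RPKM + 0.1) scale was -3.95 (SE 0.44, or 0.54 from this gene alone). That value is compressed by the pseudocount, since both AnnexinV-positive values lie under 0.1: it was -1.59 with a pseudocount of 1 and -5.37 with 0.01. The ratio of group means was 51.1-fold lower in AnnexinV-positive cells.

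Set against each other, Klk8 was 328 and 136 times the level of Klk6 in AnnexinV-positive libraries, against 0.663 and 1.09 times in AnnexinV-negative libraries, in RPKM. In AnnexinV-negative cells the 2 kallikreins were therefore at similar levels, with Klk6 higher in library 1 and Klk8 higher in library 2.

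**Figure D1:**
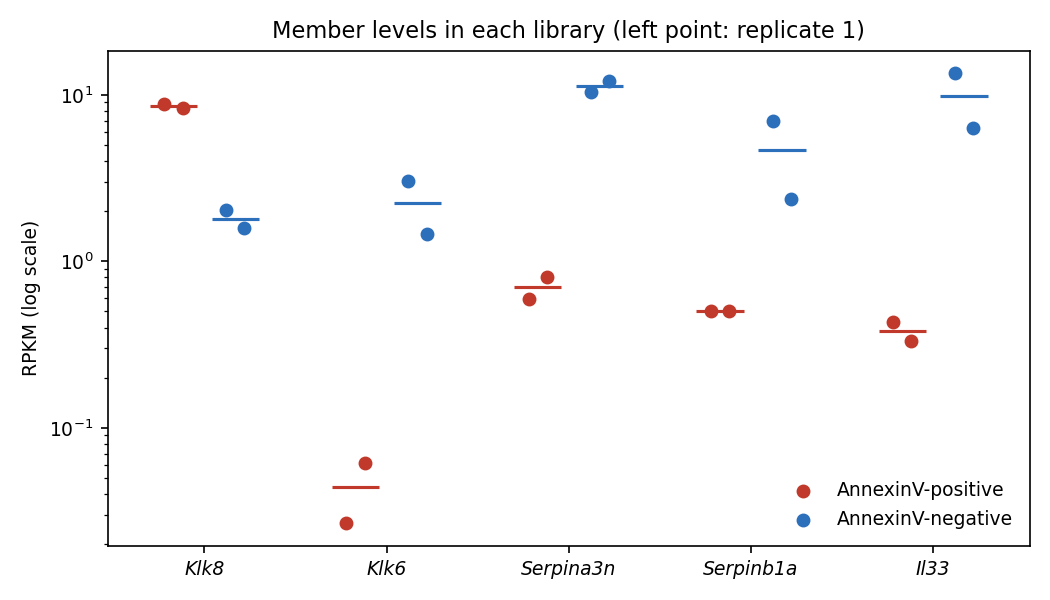
RPKM of each member on a log axis, 1 point per library (left point replicate 1), with AnnexinV-positive in red, AnnexinV-negative in blue and a bar at each group mean. Klk8 sits at 8.76 and 8.35 in AnnexinV-positive libraries, above both AnnexinV-negative libraries, and the other 4 members lie under 1 in AnnexinV-positive libraries.

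The other kallikreins of the cluster gave little RNA. None of 24 further protein-coding tissue kallikreins reached the minimum of 1 RPKM in 2 libraries, and the highest single value was 0.535 RPKM, for Klk1b26. Their summed level was 0.506 and 0.529 RPKM in AnnexinV-positive libraries, against 2.88 and 2.44 RPKM in AnnexinV-negative libraries. Klk7, which lies between Klk8 and Klk6, was at 0.0267 and 0.0429 RPKM in AnnexinV-positive and 0.492 and 0.142 RPKM in AnnexinV-negative libraries. Klk9, the neighbour on the other side of Klk8, was at 0.0343 and 0 RPKM in AnnexinV-positive and 0.0564 and 0.0489 RPKM in AnnexinV-negative libraries. The high level in AnnexinV-positive cells thus stopped at Klk8 on both sides. With no minimum, 2 of the 24 passed the test, Klk1b26 and Klk1b4, both lower. On that setting 2489 of 44826 genes were called lower and 1865 higher. The Klk1b genes are near-identical copies whose single values are uncertain.

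**Figure D2:**
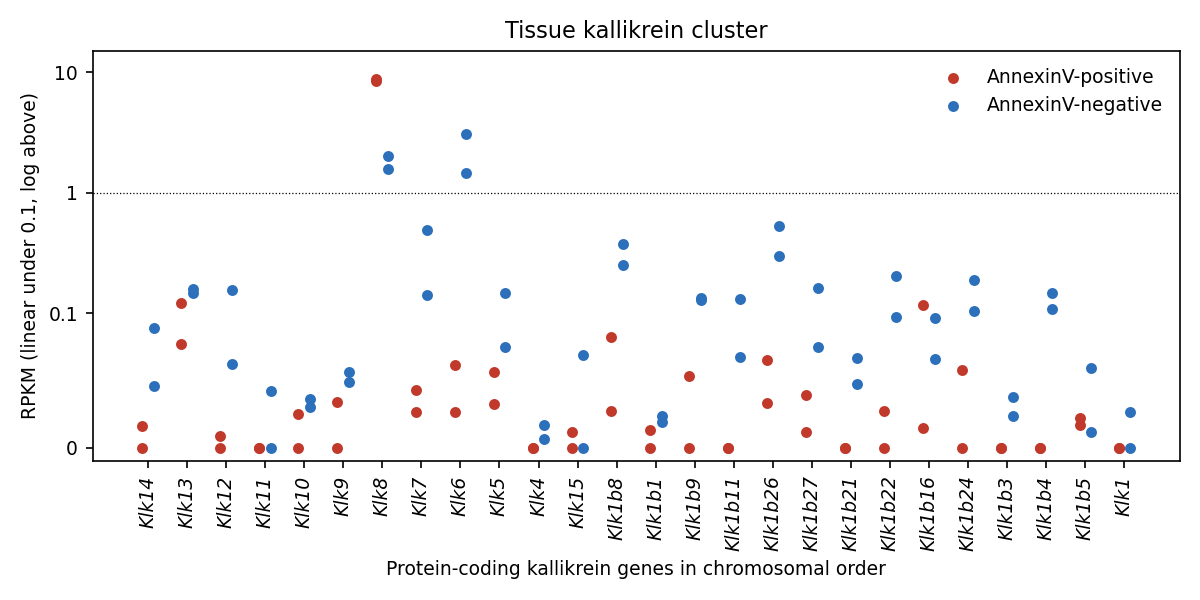
RPKM of the 26 protein-coding kallikrein genes in chromosomal order, linear under 0.1 and logarithmic above, with 2 points per group (AnnexinV-positive red, AnnexinV-negative blue) and a dotted line at 1 RPKM. Klk8 and Klk6 are the genes that cross the line, Klk8 in all 4 libraries and Klk6 in the AnnexinV-negative libraries alone.

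Serpina3n (chromosome 12, 104406729 to 104414329, plus strand, GRCm38) had the most even level within AnnexinV-negative cells among the 4 lower members. It was at 0.593 and 0.810 RPKM in AnnexinV-positive libraries, against 10.4 and 12.1 RPKM in AnnexinV-negative libraries. The groups lay far apart, and AnnexinV-negative library 2 was the higher of its pair. The mean was 16.04-fold lower in AnnexinV-positive cells, and the log2 difference -3.83 (SE 0.23, or 0.22 from this gene alone). Of 2015 50-base stretches of its transcript, 139 (6.90%) also occur in related genes, mostly of the Serpina3 cluster, so some reads could be split between copies. The read length is not given in the sources used here. Serpina3g, which shares 51 of these stretches, was at 0.488 and 0.593 RPKM in AnnexinV-positive and 0.568 and 0.567 RPKM in AnnexinV-negative libraries, under the minimum for testing.

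Serpinb1a (chromosome 13, 32842092 to 32851185, minus strand) differed most between the AnnexinV-negative libraries among the 5 members, and least between the AnnexinV-positive libraries. It was at 0.501 and 0.503 RPKM in AnnexinV-positive libraries, against 6.92 and 2.38 RPKM in AnnexinV-negative libraries. The groups did not overlap, but AnnexinV-negative library 1 was 2.90 times library 2. The log2 difference was -2.79 (SE 0.46, or 0.75 from this gene alone). That difference was -2.05 without AnnexinV-negative replicate 1 and -3.54 without AnnexinV-negative replicate 2. The neutrophil genes S100a8 and S100a9 showed the same order of libraries, as did Klk6 and the sum of the astrocyte markers given below. S100a8 was at 0.0208 and 0.167 RPKM in AnnexinV-positive and 7.30 and 2.19 RPKM in AnnexinV-negative libraries, and the neutrophil surface gene Ly6g was at or under 0.208 RPKM in each library. The neutrophil list of 10 markers summed to 57.6 and 53.0 RPKM in AnnexinV-positive and 36.7 and 36.9 RPKM in AnnexinV-negative libraries, mostly from Csf3r, which microglia also express. The part of neutrophil RNA in the Serpinb1a values was not tested. The gene shares 64 of 2277 50-base stretches (2.81%) with Serpinb1b, Serpinb1c and a pseudogene. Serpinb1c was at 0.421 and 0.470 RPKM in AnnexinV-positive and 0.0867 and 0.240 RPKM in AnnexinV-negative libraries, also under the minimum.

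Il33 (chromosome 19, 29925114 to 29960718, plus strand) had the largest negative difference of the set, -4.28 (SE 0.36, or 0.56 from this gene alone) on the log2 scale. It was at 0.431 and 0.334 RPKM in AnnexinV-positive libraries, against 13.5 and 6.34 RPKM in AnnexinV-negative libraries. The mean was 25.9-fold lower in AnnexinV-positive cells, and the groups did not overlap. No 50-base stretch of the Il33 or Klk6 transcripts occurs in another gene.

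In order of mean RPKM, AnnexinV-positive cells had Klk8, Serpina3n, Serpinb1a, Il33 and Klk6, and AnnexinV-negative cells had Serpina3n, Il33, Serpinb1a, Klk6 and Klk8. In AnnexinV-negative cells the values of Serpina3n and Il33 overlapped, and so did those of Il33 and Serpinb1a, Serpinb1a and Klk6, and Klk6 and Klk8. In AnnexinV-positive cells no neighbours in the order overlapped. By the limma call used for all genes (Benjamini-Hochberg adjusted p under 0.05), 1 member was higher and 4 were lower, where 30.8% and 9.26% of the genes tested were called higher and lower, 40.0% in either direction. By non-overlap of the groups the counts were also 1 and 4, beside 60.9% and 14.9% of the genes tested. The members were picked in this contrast, so nothing is read from these counts. The 4 lower members also reached the minimum of 1 RPKM in AnnexinV-negative libraries only, while Klk8 reached it in all 4 libraries. Genes called higher numbered 3364, but 1749 and 1297 without AnnexinV-positive replicate 1 and 2.

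The cell types in the libraries differed between the groups as well. In bulk samples, fewer cells of a type and less RNA per cell cannot be told apart. The 15 markers of mature oligodendrocytes, all past the test and lower, summed to 41.6 and 30.8 RPKM in AnnexinV-positive and 895 and 491 RPKM in AnnexinV-negative libraries. The 14 homeostatic microglia markers, genes of the brain's own macrophages, summed to 5609 and 5577 RPKM in AnnexinV-positive and 2182 and 2678 RPKM in AnnexinV-negative libraries. All 14 were called higher on the deposited scale and 0 on the TPM scale (each library rescaled to the same sum). The 11 astrocyte markers summed to 36.4 and 53.5 RPKM in AnnexinV-positive and 112 and 82.0 RPKM in AnnexinV-negative libraries, with 9 lower and 2 not past the test, and 5 lower without AnnexinV-positive replicate 1. Other cell types were lower too. Of 8 tested oligodendrocyte precursor markers 7 fell (median -3.40), of 8 endothelial markers 6 fell (median -2.40), of 6 mural cell and fibroblast markers 4 fell (median -3.04) and of 3 neuronal markers 2 fell (median -3.58). The precursor markers were uneven: Sox10 was at -5.14, Olig2 at -4.81, Olig1 at -4.54, Bcas1 at -4.19 and Gpr17 at -2.60. Ptprz1 was at -1.10, Lhfpl3 at -1.09 and Cspg4, which did not pass, at 0.55. Some markers of these cell types reached the minimum in AnnexinV-negative libraries only, as did 12 of the 15 mature oligodendrocyte markers, so their counts are a description. The part of these cell types in the members' values was not tested. The estimated number of reads in genes was 67459677 and 60146733 in AnnexinV-positive and 50535730 and 43253956 in AnnexinV-negative libraries. On the deposited scale 1 read per kilobase was worth 0.0101 and 0.0116 RPKM in AnnexinV-positive libraries, against 0.00833 and 0.0103 RPKM in AnnexinV-negative libraries. That scale is thus not proportional to the reads in genes, and differences on it depend on the scaling.

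The difference of Klk8, at 2.20, lay above all 14 microglial markers, which ranged from 0.85 to 1.33. That position picked the set. It was not above every marker of border macrophages, the macrophages of the brain's membranes and vessels. The 3 tested ones reached 1.57, but 7 of 10 were under the minimum. With no minimum 3 of these were called higher by limma, Cbr2 at 2.57, Mrc1 at 2.16 and Lyve1 at 2.01, beside 1865 of 44826 genes. Cbr2 was at 1.51 and 0.806 RPKM in AnnexinV-positive and 0.248 and 0.0186 RPKM in AnnexinV-negative libraries. With each library centred on the microglial markers the Klk8 difference was 1.05, on the TPM scale 1.44 and centred on the median gene 1.89, and the direction did not change. The median difference of all genes tested was 0.45 on the deposited scale, 0.14 with libraries centred on their median gene, -0.31 on the TPM scale and -0.70 centred on the microglial markers. Rescaling shifts Klk8 and that median by about the same amount. Klk8 lying above it on each scale is therefore no separate support.

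**Figure D3:**
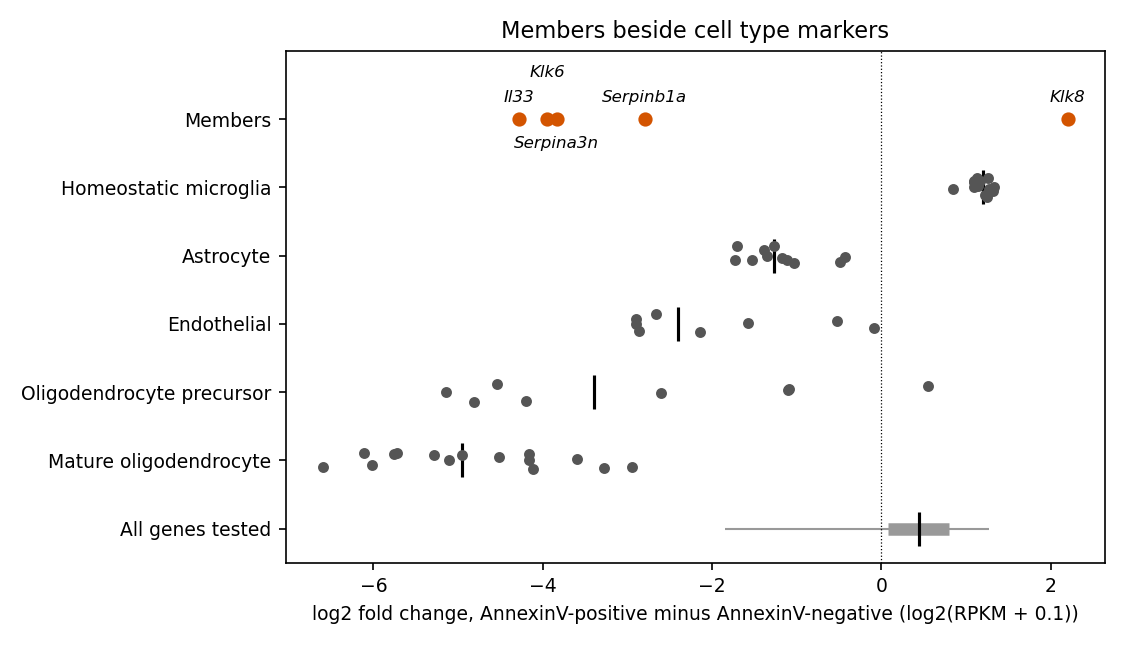
Log2 fold change (AnnexinV-positive minus AnnexinV-negative, log2(RPKM + 0.1)) of each member (orange) and of tested markers of 5 cell types (grey, bar at the median), with the 5th to 95th percentile (line), quartiles (box) and median of all genes tested. Klk8 at 2.20 lies to the right of every microglial marker, and the other 4 members lie among the oligodendrocyte markers or just right of them.

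The differences of the 4 lower members were also set against those of cell type markers. Mature oligodendrocyte markers ranged from -6.59 to -2.95 over 15 genes with a median of -4.96. Il33 lay below 6 of these 15 markers, and Klk6 and Serpina3n below 3 each. Serpinb1a, at -2.79, lay above all 15. All 4 were lower than every one of the 11 astrocyte markers, which ranged from -1.73 to -0.43. Differences of this size were not particular to oligodendrocyte genes. The neuronal genes Tubb3 and Stmn2 were at -4.68 and -3.58, the neutrophil genes S100a8 and S100a9 at -4.52 and -4.54, and the pericyte gene Pdgfrb at -3.12. Serpinb1a lay within the endothelial range, with 3 of 8 markers lower, among them Cldn5 at -2.90, and 5 higher.

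Within each library the members were set against the mean of the 15 mature oligodendrocyte markers, in log2 units of RPKM + 0.1. This shifts all members by the same amount and leaves the order of their differences as it was. Relative to that mean, Serpina3n was at 0.04 and 0.84 in AnnexinV-positive libraries, against -1.13 and 0.03 in AnnexinV-negative libraries. Serpinb1a was at -0.17 and 0.25 in AnnexinV-positive libraries, against -1.71 and -2.27 in AnnexinV-negative libraries. Il33 was at -0.35 and -0.23 in AnnexinV-positive libraries, against -0.76 and -0.89 in AnnexinV-negative libraries. Klk6 was at -2.42 and -1.65 in AnnexinV-positive libraries, against -2.87 and -2.95 in AnnexinV-negative libraries. All 4 were therefore lower in AnnexinV-positive cells by less than the average marker, though the Serpina3n groups all but touched. The pseudocount limits how far genes near 0 can fall on this scale, the markers included.

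The AnnexinV-negative pair also differed within itself. Library 1 exceeded library 2 for all 15 mature oligodendrocyte markers, by 1.44 to 2.71 times with a median of 1.86. Klk6 at 2.10 times and Il33 at 2.13 times fell within that range, and Serpinb1a at 2.90 times lay above it. Serpina3n was at 0.861 times and Klk8 at 1.28 times, outside the range of the oligodendrocyte markers. Serpina3n and Klk8 did not lie together in AnnexinV-positive cells either, where library 1 was 0.731 and 1.05 times library 2. Microglial markers had a median ratio of 0.805 in the AnnexinV-negative pair and astrocyte markers of 1.39. With 2 libraries in a group these ratios are a description.

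The genes whose pattern over the 4 libraries was nearest to each member were found among 9863 others, by Euclidean distance between log2 values centred on each gene's mean. For Klk8 they were Batf3 (distance 0.19 log2 units), a transcription factor of the AP-1 family, Gp9 (0.38), a platelet glycoprotein, and Lag3 (0.41), an inhibitory immune receptor. Batf3 was at 4.77 and 5.08 RPKM in AnnexinV-positive and 1.28 and 0.850 RPKM in AnnexinV-negative libraries. For Il33 they were S1pr5 (0.18), a sphingosine-1-phosphate receptor of oligodendrocytes, Dlx1 (0.21), a transcription factor of interneurons, and Smco3 (0.28). For Klk6 they were Dlx6os1 (0.20), Pls1 (0.29) and Pcsk1n (0.33). For Serpina3n they were Efna1 (0.15), Map6 (0.20) and Fam13c (0.20). For Serpinb1a they were Bex2 (0.31), Ccnd2 (0.35) and S100a16 (0.37). Among the members themselves, Klk6 and Il33 were nearest, at 0.56, and Klk8 and Il33 farthest apart, at 6.50. All these distances rest on 4 libraries in which 4376 genes were called different between the groups.

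Genes on which kallikreins act were mostly lower. Of 18 listed receptors and substrates 8 reached the minimum, and of these 6 fell, 1 rose and 1 did not pass the test, with a median log2 difference of -1.92. The 6 lower calls held on the centred, TPM and microglia-centred scales, while the higher call of Plau held on the centred scale only. Without AnnexinV-negative replicate 2 the higher calls numbered 2. Over all genes tested the median was 0.45, with 30.8% called higher and 9.26% lower. F2r, which encodes the thrombin receptor PAR1, was at 0.764 and 0.585 RPKM in AnnexinV-positive and 1.45 and 1.42 RPKM in AnnexinV-negative libraries. F2r was 1 of 3 genes of the list, all called lower, that reached the minimum in AnnexinV-negative libraries only, so no p is given for it. The related receptor F2rl1, or PAR2, stayed at or under 0.196 RPKM in each library. Mbp, the myelin basic protein gene, fell to 5.59 and 4.01 RPKM in AnnexinV-positive cells, against 84.8 and 48.1 RPKM in AnnexinV-negative cells. Vtn, which encodes vitronectin and is also a pericyte marker, had the largest difference of the list, -4.55 (SE 0.18).

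The plasminogen activators differed in opposite directions. Plat, encoding the tissue-type activator, was at 0.669 and 0.962 RPKM in AnnexinV-positive and 8.66 and 8.39 RPKM in AnnexinV-negative libraries. Like F2r, Plat reached the minimum in AnnexinV-negative libraries only, so its lower call is a description. Plau, encoding the urokinase-type activator, was at 9.79 and 9.84 RPKM in AnnexinV-positive and 2.87 and 4.21 RPKM in AnnexinV-negative libraries, a log2 difference of 1.47 (SE 0.23, limma adjusted p 0.00479). On the TPM scale the Plau difference was 0.71 and did not pass.

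Of 36 other serpins 7 reached the minimum, 3 of them in 1 group only: 3 rose, 2 fell and 2 did not pass, beside 30.8% higher and 9.26% lower over all genes tested. The median was 0.27, against 0.45 over all genes. The higher ones included Serpinf1 (1.46) and Serpine2 (0.93) on the log2 scale. Serpine2 inhibits thrombin and plasminogen activators. Serpine2 was by far the most abundant serpin, at 323 and 383 RPKM in AnnexinV-positive and 156 and 219 RPKM in AnnexinV-negative libraries. Serpinh1, a collagen chaperone, fell by 2.19, and Serpini1, or neuroserpin, by 0.96. Serpinf1 reached the minimum in AnnexinV-positive libraries only and Serpini1 in AnnexinV-negative libraries only, so their calls are a description. On the TPM scale 0 of the 7 were higher and 2 lower. Centred on the microglial markers 0 were higher and 4 lower, and Serpine2 turned to -0.25, without passing the test. Without AnnexinV-positive replicate 2 only 1 was higher and 1 lower. Without AnnexinV-positive or AnnexinV-negative replicate 1, 2 were higher and 1 was lower.

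RNA of the proteases listed as possible targets of Serpina3n and Serpinb1a was scarce, and their protein was not measured. Of 12 listed only Gzmb, which encodes granzyme B, reached the minimum, at 0.296 and 0.485 RPKM in AnnexinV-positive and 2.21 and 1.14 RPKM in AnnexinV-negative libraries. It reached the minimum in AnnexinV-negative libraries only, so no p is given. The neutrophil elastase gene Elane, the cathepsin G gene Ctsg and Prtn3 stayed under 0.1 RPKM in each library.

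The receptor genes for IL-33 differed in opposite directions. Il1rl1, which encodes the IL-33 receptor ST2, was at 1.73 and 1.30 RPKM in AnnexinV-positive and 0.705 and 0.732 RPKM in AnnexinV-negative libraries, a log2 difference of 0.97 (SE 0.27). It reached the minimum in AnnexinV-positive libraries only, so no p is given. It was called higher on the deposited scale and on none of the other 3, and the difference turned to -0.10 centred on the microglial markers. Il1rap, the co-receptor shared by IL-1 and IL-33, was at 1.49 and 0.825 RPKM in AnnexinV-positive and 9.55 and 5.65 RPKM in AnnexinV-negative libraries, a log2 difference of -2.62 (SE 0.35). It was lower on all 4 scales.

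Of 12 genes of the IL-33 receptor pathway 11 were tested: 7 rose, 1 fell and 3 did not pass, with a median of 0.97. Over all genes tested 30.8% were higher and 9.26% lower, with a median of 0.45. The higher ones beside Il1rl1 were the adaptor Myd88 (1.20), the kinases Irak1 (0.74), Irak2 (1.21) and Irak4 (0.98), and the NF-kB subunits Nfkb1 (1.23) and Rela (0.97). Of all 11, 4 were higher with libraries centred on their median gene, and 0 were higher on TPM or with microglial centring. Centred on the microglial markers, Il1rl1, Irak1, Irak4 and Rela turned negative, and Irak1 also on the TPM scale. Without AnnexinV-positive replicate 1 and 2 the number was 3 and 4.

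Most other tested genes of the IL-1 family were higher on the deposited scale. Il1a was at 842 and 638 RPKM in AnnexinV-positive and 255 and 233 RPKM in AnnexinV-negative libraries, and Il1b at 783 and 702 RPKM in AnnexinV-positive and 257 and 238 RPKM in AnnexinV-negative libraries. Of 14 listed genes 10 were found in the files and 5 were tested. Il1a (1.59), Il1b (1.58), the receptor antagonist Il1rn (1.30) and Il18bp (0.96) rose, and Il18 was at 0.24 without passing, beside 30.8% higher and 9.26% lower over all genes tested. On the TPM scale Il1a and Il1b remained higher, at 0.81 each. Centred on the microglial markers 0 passed, and Il18bp turned to -0.14. Il18 was negative, without passing, on all 3 other scales, at -0.07 centred on the median gene, -0.53 TPM and -0.92 microglia-centred.

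**Figure D4:**
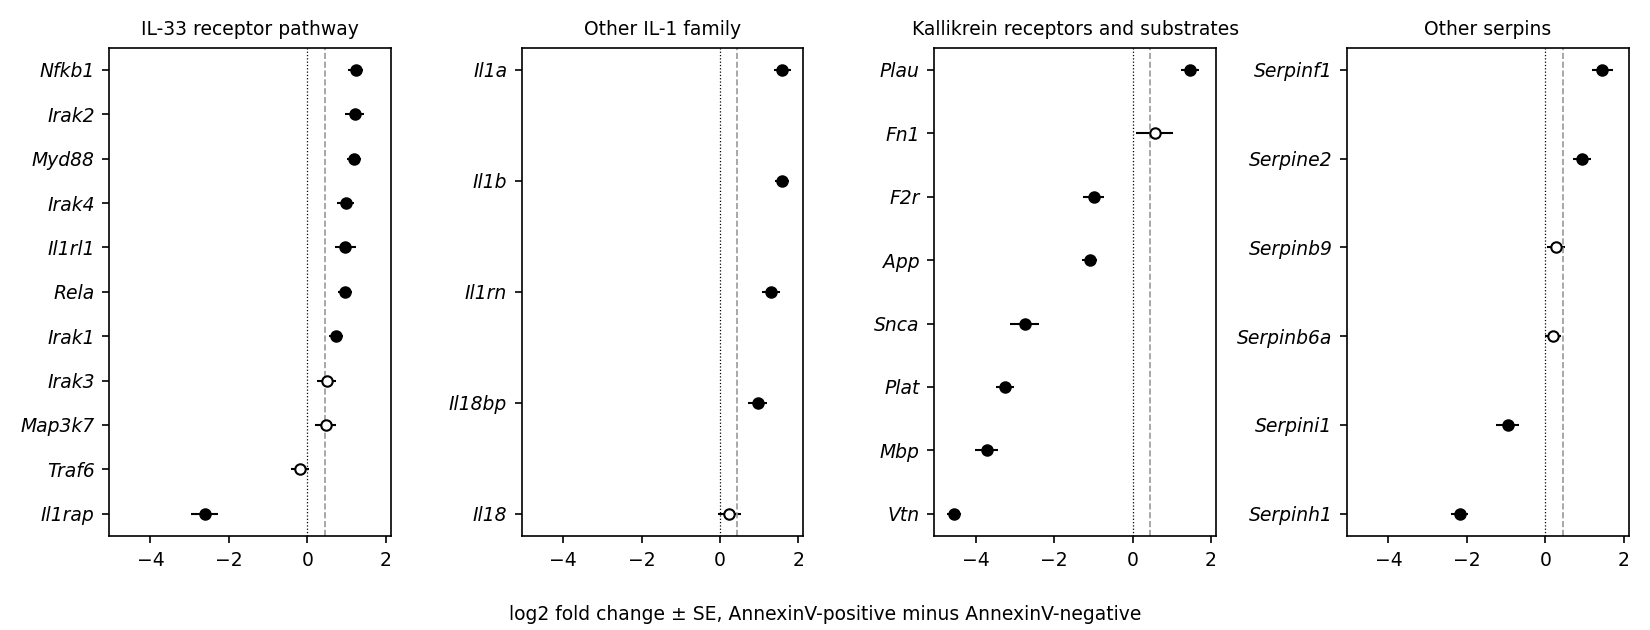
Log2 fold change ± SE (limma, AnnexinV-positive minus AnnexinV-negative) of the tested genes of 4 lists, 1 serpin left out, with filled points past the adjusted p threshold of 0.05, a dotted line at 0 and a dashed line at 0.45, the median of all genes tested. Il1rap lies at -2.62 apart from the rest of the IL-33 receptor pathway, and Plau at 1.47 lies opposite to Plat.

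Other genes known from reactive oligodendrocytes went in both directions on the deposited scale. Of 24 listed 22 were tested: 15 rose, 2 fell and 5 did not pass, with a median of 0.94, beside 30.8% higher, 9.26% lower and a median of 0.45 over all genes. Many of them, such as B2m, H2-D1 and H2-K1 of MHC class I, are also expressed by microglia, and the similar sequences of H2-D1 and H2-K1 leave their separate values uncertain. Psmb8, a subunit of the immunoproteasome, rose by 1.34, and Atf3, a stress-induced transcription factor, also by 1.34. The stress genes Trib3 (-2.60) and Ddit3 (-0.85) fell, and without AnnexinV-positive replicate 1 only 1 gene was lower. Lcn2, an acute-phase gene under the minimum, was called lower with no minimum (-1.94, limma adjusted p 0.0246). C4b, the complement gene often raised together with Serpina3n in oligodendrocytes, was at 3.40 and 2.51 RPKM in AnnexinV-positive and 4.08 and 6.63 RPKM in AnnexinV-negative libraries. Its difference of -0.81 did not pass (limma adjusted p 0.0581), but passed on the other 3 scales, at -1.12 centred, -1.57 TPM and -1.96 microglia-centred. On the TPM scale 0 of the 22 were higher and 3 lower, and centred on the microglial markers 0 and 4. On that last scale the genes with negative differences, without passing, included Socs3, Bcl3, Sgk1, Cd63, Tap1, Tapbp, Stat3 and Igtp. Sgk1 was also negative on the TPM scale.

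Genes that mark subtypes of mature oligodendrocytes were mixed. Of 17 listed 16 were tested: 7 fell, 4 rose and 5 did not pass, with a median of -1.36, beside 9.26% lower, 30.8% higher and a median of 0.45 over all genes. The lower calls numbered 10 on the TPM scale, 12 centred on the microglial markers and 10 without AnnexinV-negative replicate 2. Apod (-5.81), Hapln2 (-5.77), Opalin (-4.96) and Car2 (-4.77) had the largest decreases, beyond those of the 4 lower members of the set. Hapln2 and Opalin reached the minimum in AnnexinV-negative libraries only, so their calls are a description. The 4 that rose were Egr1, Dusp1, Pmp22 and Anxa5, by 0.91 to 1.03, and 0 of them passed on the TPM scale. All 4 turned negative, without passing, centred on the microglial markers. Ptgds, a marker shared by oligodendrocytes and the choroid plexus, was at 8.72 and 1.63 RPKM in AnnexinV-positive and 36.0 and 10.3 RPKM in AnnexinV-negative libraries, and its difference of -2.31 did not pass. It passed on the TPM scale (-3.07) and centred on the microglial markers (-3.46).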

How the data were processed

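RNA of sorted corpus callosum cells was sequenced from 2 AnnexinV-positive and 2 AnnexinV-negative libraries, grouped by their titles, with TruSeq v2 kits per the labels' protocols. Reads were aligned with GSNAP to mm10, per the submitters' processing notes, and the sources used here do not give the counter, annotation or filters. The deposited files held values read as RPKM that the authors scaled between libraries: of values worth under 100 reads, 79.6% to 83.6% came within 0.01 of whole reads after division by a step set from exon length. Reads were estimated from that step and carry the error of the exon lengths.

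Symbols, exon lengths and coordinates came from GENCODE vM21 (GRCm38), which named 52403 of 52636 genes. Promoters came from RefSeq, which held 4 of 5 members; Serpinb1a had no entry. Values were transformed to log2(RPKM + 0.1), which understates the change of low genes. The 10927 genes that reached an RPKM of 1 in 2 libraries, all 5 members included, were compared in R 4.3.3. The test was limma 3.58.1 (intensity trend, no covariate), with calls where the Benjamini-Hochberg adjusted p, taken over these 10927, was under 0.05. The steps were tested on simulated data. An exact permutation test of 2 against 2 libraries cannot go below a two-sided p of 0.333, so none was run. Counts of pathway list members stand beside the shares over all genes, with no test of the list. Genes that reached the minimum in 1 group only had to differ, and their calls are a description. Intervals cover counting error only.

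The members and gene lists were chosen with earlier results of these data known. Named genes were the members, list genes past the test with up to 4 others per list, and the 3 nearest patterns per member. 2310002F09Rik, neighbouring genes and genes with shared stretches were named because they bear on a member's reads. Some list genes past the test are not reported here by name. Alternatives covered the pseudocount, the minimum, the scale, the trend, a replicate block and leaving out each library, with the genes tested held. The block with crossed numbers was chosen after seeing the data.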

Additional observations from a re-analysis of the deposited data

How the results depend on the processing

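No alternative changed the direction of a member. Klk8 at 2.20 became 1.78 with a pseudocount of 1, 1.89 centred on the median gene, 1.44 on the TPM scale and 1.05 centred on the microglial markers. Klk6 at -3.95 became -1.59 and -5.37 with pseudocounts of 1 and 0.01, and -4.67 microglia-centred. Serpina3n at -3.83 became -2.85 with a pseudocount of 1, -4.13 centred, -4.56 TPM and -4.92 microglia-centred. Serpinb1a at -2.79 became -1.79 with a pseudocount of 1 and -3.84 microglia-centred. Il33 at -4.28 became -2.90 with a pseudocount of 1, -4.98 TPM and -5.31 microglia-centred. Leaving out 1 library gave 2.03 to 2.37 for Klk8, -4.46 to -3.44 for Klk6, -4.03 to -3.64 for Serpina3n, -3.54 to -2.05 for Serpinb1a and -4.82 to -3.74 for Il33.

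Genes called higher, 3364 of 10927, and lower, 1012, became 1865 and 2489 with no minimum, 1152 and 1166 centred, 114 and 2104 TPM and 14 and 5189 microglia-centred. Leaving out 1 library gave 1297 to 3356 higher and 787 to 1060 lower; the low counts of higher genes came without an AnnexinV-positive library (1749 without replicate 1 and 1297 without replicate 2). With the replicate block 2443 were higher and 957 lower. The titles share only a number, and same-numbered libraries deviated with a correlation of -0.21 over genes, so the numbers are not taken as pairs; with crossed numbers 4891 were higher and 1136 lower. Depth limits Klk6 most, with 4 and 8 reads in AnnexinV-positive libraries.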
